A study of Mus musculus with 2 samples.

Results

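Intergenic loci are places where long reads gave a transcript model that the deposited tables class as intergenic, outside or at the edge of annotated genes, with 6 exceptions named below that overlap one. In gastrocnemius, a calf muscle, 707 such loci were found in both libraries, of 5470 intergenic loci in either library. A locus was a run of intergenic models whose spans overlapped by at least 1 base on the same strand. Loci were selected on their read counts: a locus was kept when each library showed it and the reads summed to at least 3, on chromosomes 1 to 19, X, Y and M. The samples form 1 group of 2 libraries: gastrocnemius of female B6CASTF1/J mice, a first-generation cross, aged 36 days and with no treatment named. The labels give the libraries different female numbers and tissue samples under 1 shared donor entry, and each library started from 2 µg of RNA with spike-ins added. Replicate 1 held 797105 reads in annotated mouse genes and replicate 2 held 1602272, so that 1 read was worth 1.25 and 0.624 CPM (counts scaled in each library to the same total of those reads). Tests between the libraries compare these 2 libraries only and no condition.

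A transcript outside annotated genes can have several known origins. RNA polymerase can read on past the end of a gene, promoters can fire in both directions and give short-lived divergent RNAs, and long non-coding RNA genes can be missing from an annotation. Processed pseudogenes are DNA copies of spliced messenger RNAs, and annotations often hold only the part that matches the parent's protein, not the copied untranslated region (UTR). In muscle, non-coding transcripts are known around the microRNA genes Mir1a and Mir133a and within the cluster of fast myosin heavy chain genes.

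Short sequences, in 3 sets, show annotated gene ends and starts beside which some of these loci begin. The first set shows where annotated pseudogenes end that are followed by a locus: the last 33 bases of the annotated copy, read from the GENCODE M21 transcripts, set beside the last 33 bases of its parent's coding sequence. Capitals mark the parent's stop codon and the bases in its place in the copy.
Gm12033, chr11, a copy of Gapdh: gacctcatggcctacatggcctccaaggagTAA
Gapdh: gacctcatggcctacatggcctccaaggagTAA
Tpt1-ps3, chr6, a copy of Tpt1: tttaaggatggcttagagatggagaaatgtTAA
Tpt1: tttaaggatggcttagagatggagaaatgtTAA
Cox6c2, chr12, a copy of Cox6c: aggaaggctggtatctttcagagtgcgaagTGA
Cox6c: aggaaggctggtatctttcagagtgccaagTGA

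The second set shows start regions of spliced loci that RefSeq, another gene catalogue, lists as genes although GENCODE M21 does not. Each is the RefSeq window of 250 bases before to 50 bases after the listed start (GRCm38.p6, which has the chromosome coordinates of mm10). Capitals mark the bases from the locus's own 5′ end onward. IL088 was chosen outside the rule for names, after its values were seen.
Gm38768, locus IL023, chr6:14608201-14608500, plus strand: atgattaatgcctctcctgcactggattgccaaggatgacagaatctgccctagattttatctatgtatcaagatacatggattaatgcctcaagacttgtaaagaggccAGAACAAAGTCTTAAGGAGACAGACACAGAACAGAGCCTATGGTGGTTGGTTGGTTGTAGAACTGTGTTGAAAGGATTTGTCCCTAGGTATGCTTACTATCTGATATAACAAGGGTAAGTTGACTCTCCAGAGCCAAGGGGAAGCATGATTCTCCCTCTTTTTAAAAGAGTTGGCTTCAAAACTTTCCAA
Gm31285, locus IL088, chr11:67143895-67144194, minus strand: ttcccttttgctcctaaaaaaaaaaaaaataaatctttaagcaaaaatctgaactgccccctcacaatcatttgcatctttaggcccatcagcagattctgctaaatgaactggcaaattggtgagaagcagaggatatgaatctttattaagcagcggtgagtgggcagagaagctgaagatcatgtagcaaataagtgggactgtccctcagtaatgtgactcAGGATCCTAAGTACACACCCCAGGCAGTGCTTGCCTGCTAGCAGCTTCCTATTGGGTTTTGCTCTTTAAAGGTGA

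The third set is the window of Gm45923, which holds the start of the single-exon locus upstream of Myod1, the gene of a master regulator of muscle identity. It was chosen after its values were seen.
Gm45923, locus IL418, chr7:46371153-46371452, plus strand: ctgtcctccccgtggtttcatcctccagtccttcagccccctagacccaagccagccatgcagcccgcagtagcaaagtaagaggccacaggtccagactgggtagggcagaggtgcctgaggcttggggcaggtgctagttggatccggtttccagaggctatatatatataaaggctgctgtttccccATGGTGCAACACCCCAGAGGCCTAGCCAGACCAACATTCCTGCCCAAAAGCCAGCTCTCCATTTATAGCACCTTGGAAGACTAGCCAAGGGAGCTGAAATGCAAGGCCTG

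The libraries differ in ways that touch the results. All 5 skeletal muscle markers were detected in both, at 246965 and 206042 CPM in sum. Slow fibre markers summed to 21.3 CPM in replicate 1, with 3 of 7 detected, and to 9054 CPM with 7 of 7 in replicate 2. Adipocyte markers were at 449 and 75.5 CPM and blood markers at 2543 and 550 CPM, each with 4 of 4 detected in both. Reads of annotated genes lay in spliced models for 90.8% in replicate 1 and 83.8% in replicate 2, and the read-weighted median model was 1588 and 1208 bases long. Intergenic models took 0.509% of the mouse reads in replicate 1 and 1.07% in replicate 2. The part of these differences in the results below was not tested unless a value is given.

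The loci found in both libraries held 2893 of 4151 intergenic reads in replicate 1, a share of 69.7% (exact Clopper-Pearson 95% interval 68.3 to 71.1, counting error only, as for all intervals). In replicate 2 they held 8744 of 18305 reads, 47.8% (47.0 to 48.5). Most were seen few times: the median was 6 reads summed, 487 loci had under 10, 220 had 10 or more and 11 had 100 or more. Just inside the rule, 133 loci had exactly 3 reads, and just outside it 242 loci in both libraries had 2. The 10 highest loci held 32.5% (30.8 to 34.2) and 40.9% (39.8 to 41.9) of the loci's reads in the 2 libraries. Across the 707 loci, log2(CPM + 1) in the libraries had a Pearson correlation of 0.68 and a Spearman correlation of 0.43, as a description, since the rule itself required a read in each library.

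**Figure D1:**
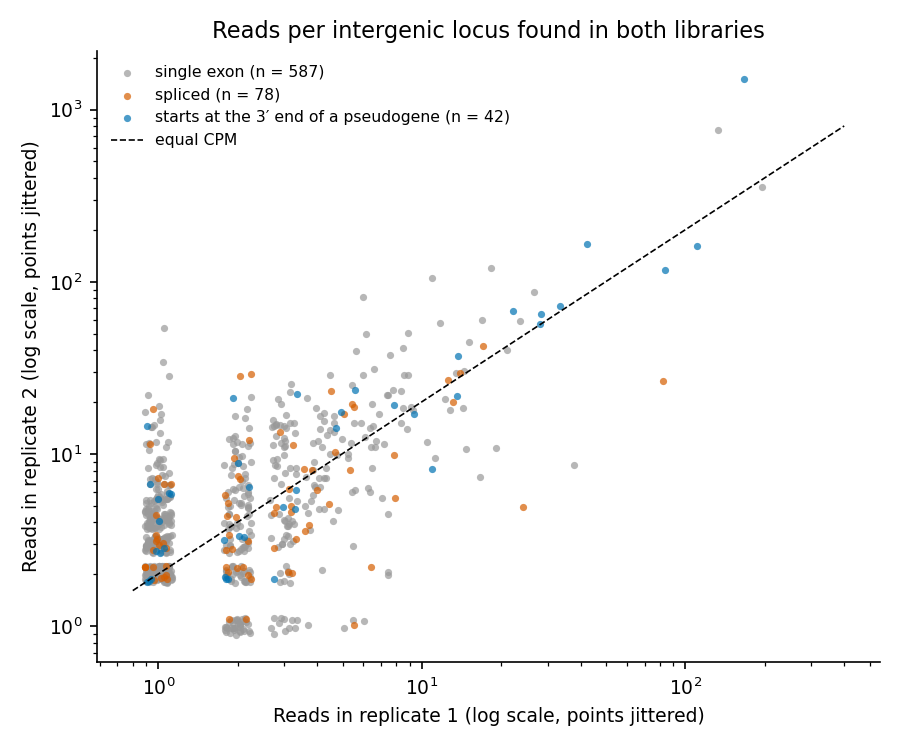
Reads per locus in replicate 1 (horizontal) and replicate 2 (vertical), both on log scales with points jittered, for single-exon loci (grey), spliced loci (orange) and loci that start at the 3′ end of an annotated pseudogene (blue). The dashed line is equal CPM. The upper right point is IL001 with 152 and 1513 reads, and the orange point at 83 and 28 reads is IL007 on chromosome Y.

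Exon number was low. Of the 707 loci, 629 had single-exon models only and 78 had a spliced model, 11.03% (8.82 to 13.6). Among the spliced loci the longest chain had 2 exons at 47 loci, 3 at 15, 4 at 7, 5 at 7 and 6 at 2. Single-exon models held 94.1% of the loci's reads in replicate 1 and 96.0% in replicate 2. Intergenic loci with at least 3 reads in 1 library and none in the other had a spliced model at 3 of 20 loci in replicate 1, 15.0% (3.21 to 37.9), and at 37 of 399 in replicate 2, 9.27% (6.61 to 12.6). These intervals include the 11.03% among the loci found in both, which counts a spliced model in either library. Counted in 1 library at a time, 8.49% of the loci found in both had a spliced model in replicate 1 and 9.76% in replicate 2.

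The splice structure was shared between the libraries at many of the spliced loci. Spliced models were present in both libraries at 51 of the 78, at least 1 intron was the same to the base at 44, and a whole chain of introns was the same at 38. In all there were 203 distinct introns, 72 of them in both libraries, with a median length of 1508 bases and a range of 36 to 76397. Only 6 were shorter than 70 bases. An intron was shared at 23 of 47 loci with 2 exons, 7 of 15 with 3, 7 of 7 with 4, 5 of 7 with 5 and 2 of 2 with 6. Spliced loci had a median of 7.5 reads summed and single-exon loci one of 6.

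**Figure D2:**
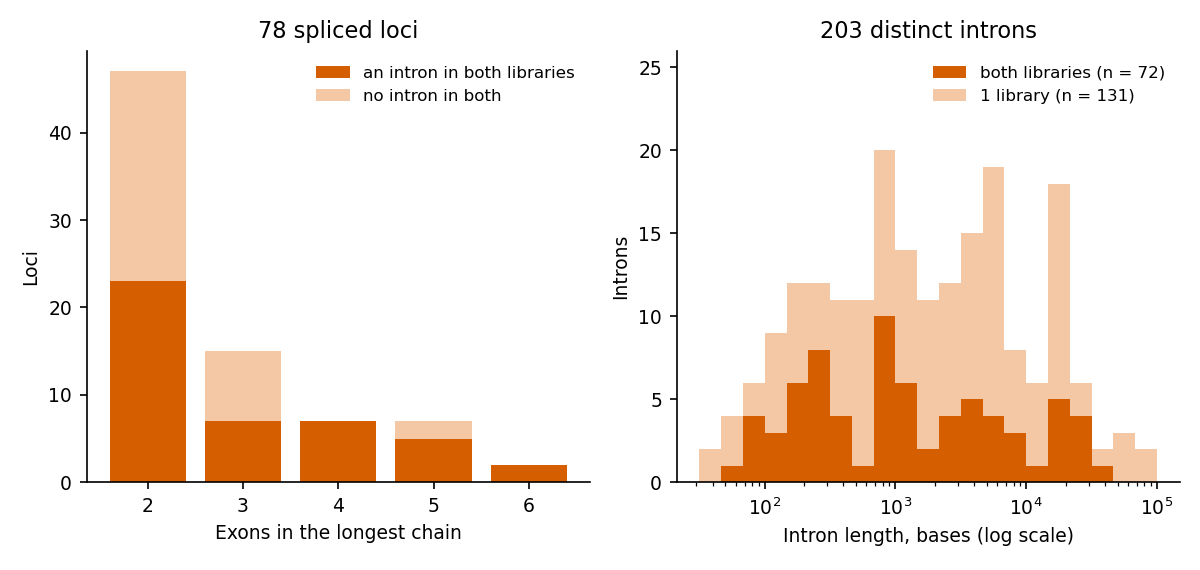
Left, number of spliced loci (vertical) by the number of exons in the longest chain (horizontal), split by whether an intron was found in both libraries. Right, lengths of their 203 distinct introns in bases on a log scale (horizontal) against the number of introns (vertical), with 72 introns in both libraries in dark orange.

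The locus with the most spliced reads was IL023, chr6:14608311-14621887 on the plus strand, 37285 bases from the nearest GENCODE gene, the pseudogene Gm44446. It had 16 reads in replicate 1 and 38 in replicate 2, of which 15 and 37 were spliced, and its level was 21.9 ± 2.58 CPM (SD, n = 2). Its models had up to 6 exons, and 5 intron chains were found in both libraries. The first intron most often ended at one acceptor and began at either of a pair of donors, while 1 and 2 reads joined these donors to other acceptors. The 94-base form had 10 and 21 reads and the 121-base form 3 and 7, so the shorter form was the more frequent in both libraries. The next exon was joined to the last common one by an intron of 2999 bases in 11 and 25 reads, while 3 and 6 reads left by an intron of 880 bases to an additional exon. RefSeq lists this place as the long non-coding RNA gene Gm38768, and the locus began 140 bases before the listed start, in the window printed above.

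IL032, chr5:139484549-139512008 on the plus strand, was spliced by 1 intron in 13 of its 14 reads in replicate 1 and 23 of 24 in replicate 2. The intron began at base 139485105, and the spliced models were 159 bases long in replicate 1 and 167 in replicate 2. They thus began inside the locus and not at its 5′ end, which an unspliced model set. That 5′ end shared its base with the 5′ end of Zfand2a, a stress-induced zinc finger gene on the other strand. Zfand2a itself had 1 and 3 reads. IL058, chr5:111490735-111492383 on the plus strand, lay 33701 bases downstream of Mn1. It had 2 and 31 reads, and both of its introns, of 92 and 783 bases, were found in both libraries, in 2 and 27 reads and in 2 and 29 reads. RefSeq lists the place as Gm36149.

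IL088, chr11:67132633-67143969 on the minus strand, lies in the cluster of fast myosin heavy chain genes, upstream of 2310065F04Rik, a long non-coding RNA gene of that cluster. IL088 was named outside the rule for names and was chosen after its values were seen. It had 7 and 11 reads, 8.78 and 6.87 CPM, and models of up to 5 exons. Introns of 213 bases (2 and 4 reads) and 310 bases (2 and 6 reads) near its start were found in both libraries, while its 5 downstream introns with 1 or 2 reads each appeared in replicate 2 only, as did 1 of 993 bases. RefSeq lists the place as Gm31285, and the locus began 25 bases before the listed start.

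The other spliced loci named here by the rule had shared chains and fewer reads than IL023, IL032 and IL058. IL066 on chromosome 18 began at the last base of Mc5r, a melanocortin receptor gene, and had 5 and 22 reads, every one spliced. IL071, downstream of Gm6749 on the other strand, had 2 and 26 reads, of which 2 and 13 were spliced. IL081 downstream of Zfp239 had 5 and 17 reads, of which 5 and 16 were spliced. At IL124, with 5 and 10 reads, and IL146, with 3 and 12, every read was spliced. IL148 had 3 and 12 reads, of which 2 and 12 were spliced. IL146 was 1 of 6 loci that overlapped an annotated gene on its own strand or the other by more than 1 base, in its case Plpp7 by 15281 bases. All 6 of these overlapping loci were spliced.

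RefSeq held genes at part of these loci. Of its 49997 mouse genes, 11335 had no match by name or identifier in GENCODE M21. Such a gene overlapped 93 loci, 13.2% (10.7 to 15.9): on the same strand at 43, on the other strand only at 22, and with the strand not given at 28. Of the 43 on the same strand, 40 were with long non-coding RNA genes. Locus spans ran from 82 to 115894 bases, and the part of span in the shares that follow was not tested. The share on the same strand was 22 of 78 spliced loci, 28.2% (18.6 to 39.5), and 21 of 629 single-exon loci, 3.34% (2.08 to 5.06). Among loci with an intron in both libraries, all of them spliced, it was 17 of 44, 38.6% (24.4 to 54.5). Over all 707 loci the same-strand share was 6.08% (4.44 to 8.11). That was near the 24 of 419, 5.73% (3.70 to 8.40), among loci in 1 library with at least 3 reads. The 5′ end of 18 loci, 14 of them spliced, fell inside the window around a RefSeq start, at a median distance of 94 bases from it. Among the 18 was the single-exon locus IL540, in the window of Gm27204, a gene that GENCODE M21 also holds.

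Motifs were searched in those windows on both strands. TATAAA, the core of the TATA box that places transcription starts, was in 13.6% of all 32851 RefSeq windows of this length. CANNTG, the E-box bound by myogenic factors, was in 72.3%, and TATATA was in 5.67%. Of the 18 windows that hold the start of a locus, 3 had TATAAA, 1 had TATATA and 14 had CANNTG. The Gm45923 window, chosen after its values were seen, held 2 matches to TATAAA, 1 on each strand, 4 overlapping matches to TATATA and 1 to CANNTG. The TATAAA on the strand of IL418 ran from 21 to 16 bases before the locus start and overlapped the TATATA run, which began 29 bases before it. The Gm38768 window had none of the 3 motifs, and the Gm31285 window had 1 CANNTG.

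The loci lay close to annotated genes. The median distance to the nearest gene on either strand was 2254 bases (quartiles 512 and 7043.5). Within 1 kb lay 35.4%, within 5 kb 67.8%, within 10 kb 80.9% and within 50 kb 97.2% of them, and 20 loci were farther. By position, 231 loci (32.7%, 29.2 to 36.3) were downstream of the nearest gene on its strand and 191 (27.0%) downstream on the other strand. Upstream lay 130 (18.4%) on the same strand and 149 (21.1%) on the other. Loci downstream on the same strand were the nearest, at a median of 1340 bases, and loci upstream on the same strand the farthest, at 4183. The nearest gene was protein-coding for 62.0% of loci, a pseudogene for 20.2% and a long non-coding RNA gene for 12.3%, where the annotation holds 39.6%, 24.4% and 18.3% of these. It was detected in both libraries for 57.7% of loci, while 20.5% of all annotated genes were.

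**Figure D3:**
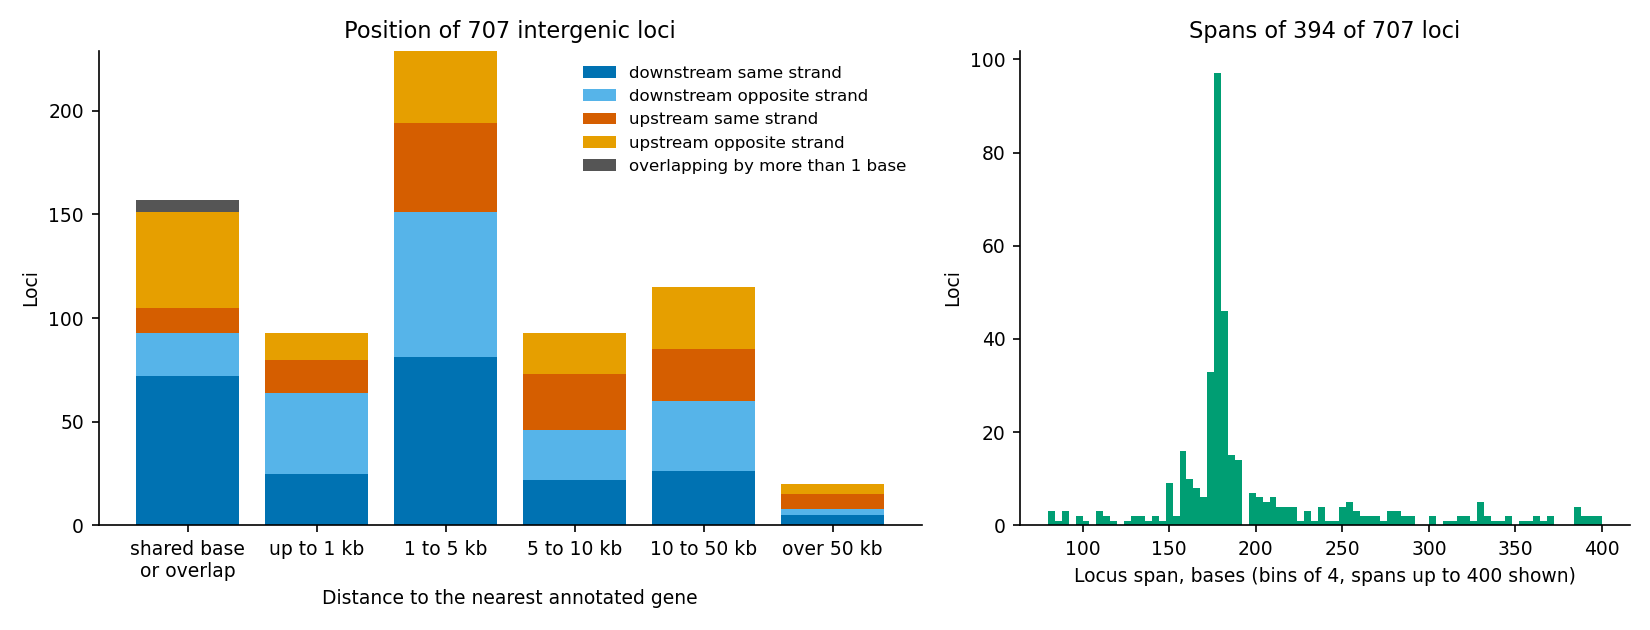
Left, number of loci (vertical) by distance to the nearest annotated gene (horizontal), coloured by side and strand, with 157 loci that share a base with a gene in the first bar. Right, number of loci (vertical) by span in bases (horizontal, bins of 4), for the 394 loci with spans of up to 400 bases, with a peak at the 16 lengths from 172 to 187.

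The farthest loci with 10 or more reads were single-exon. IL224, chr13:83403830-83409349, lay 94684 bases upstream of Mef2c, the gene of a muscle transcription factor, on its strand, and had 2 and 8 reads. IL046 had 14 and 12 reads at 88082 bases from Gm9947, and IL165 had 4 and 8 reads at 62038 bases from Gm12610. IL092, at 57142 bases, had 4 and 17 reads, and IL101, at 46114 bases, had 4 and 15.

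A shared edge was frequent. Exactly 1 base was shared with an annotated gene at 151 loci, and it was the 5′ end of the locus at 118 and the 3′ end at 33. Of these, 72 loci began at the last base of a gene on the same strand, 42 of them at a pseudogene and 25 at a protein-coding gene. A further 46 began at the first base of a gene on the other strand, 43 of them at a protein-coding gene. The other two arrangements were 21 loci that ended on the 3′ end of a gene on the other strand and 12 that ended on the first base of a gene on the same strand. How the program that built the models from the reads sets such edges was not stated.

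The 46 divergent loci started on the base where a gene on the other strand starts. They had a median of 6 reads, and 15 of the 46 had a spliced model. Such a model need not itself begin on the shared base, and at IL032 it did not. The partner gene was detected in both libraries at 42, 91.3% (79.2 to 97.6), and its summed CPM exceeded that of the locus at 35. Partners included several genes of contraction and energy supply, chosen here after their values were seen. IL389 began at Tpm1, the gene of a tropomyosin of the thin filament, with 2 and 3 reads against 24040 and 40878 for Tpm1. IL329 began at Adssl1, a muscle enzyme of the purine nucleotide cycle, with 2 and 4 reads and up to 5 exons, against 968 and 1923. IL238 began at Jph1, which couples the cell membrane to the calcium store, with 3 and 5 reads and up to 4 exons, against 93 and 123. IL070 began at Slc6a8, the creatine transporter, with 6 and 18 reads against 15 and 26, and its 2 introns had 5 and 9 reads each. IL287 began at Mef2c with 3 and 3 reads and up to 6 exons, spanned 64005 bases and shared an intron of 4960 bases between the libraries in 3 and 1 reads, against 117 and 164 for Mef2c. The partners stood far above the locus at Tpm1 and Adssl1 and close to it at Slc6a8.

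The 42 loci that start at the last base of a pseudogene held 623 reads in replicate 1 and 2519 in replicate 2, 21.5% (20.0 to 23.1) and 28.8% (27.9 to 29.8) of the reads of all 707. The annotated copy shared at least 50% of its 25-base words with 1 protein-coding gene, its parent, at 37 of them, and at least 80% at 21. Of 41 copies that could be placed on a parent, 38 ended within 3 bases of the parent's stop codon, 20 of them on its last base, as in the pairs printed above. The span of the locus was within 20 bases of the length of the parent's 3′ UTR at 22 of the 37. These loci were picked for starting at the last base of the copy. Their start near the parent's stop codon at those 38 thus follows from where the annotated copy ends, and nothing more is read from it. The sequence of the loci was not read, since no genome was used here, and reads of the parent placed at a copy cannot be told apart from reads of the copy.

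**Figure D4:**
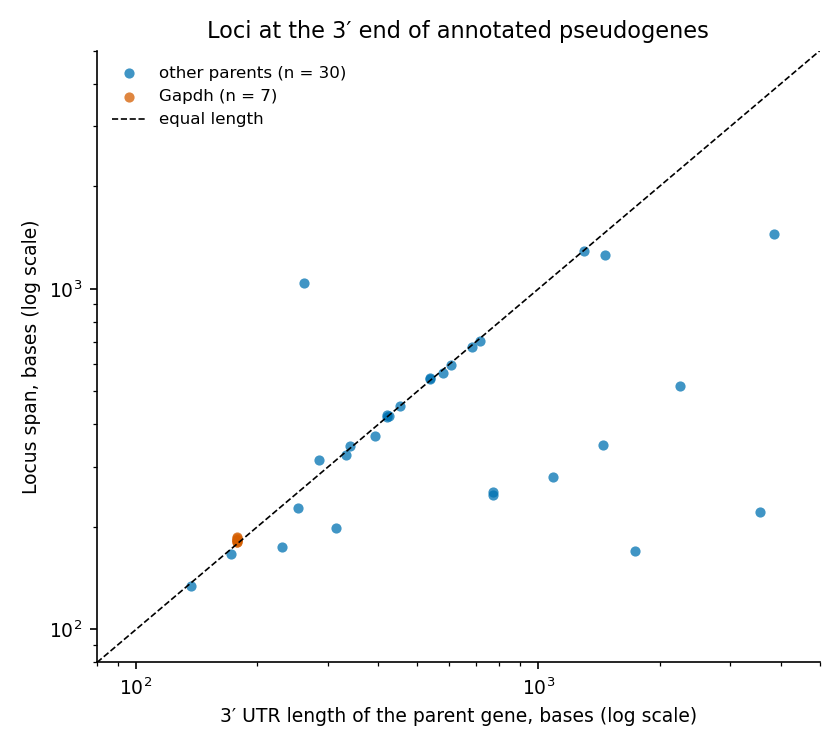
Span of each locus that starts at the 3′ end of an annotated pseudogene (vertical) against the length of the 3′ UTR of the parent gene (horizontal), both in bases on log scales, for the 37 copies with at least 50% of their 25-base words in 1 parent. The dashed line is equal length, and 22 of the 37 points lie within 20 bases of it, the 7 copies of Gapdh among them.

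Gapdh, a glycolysis enzyme gene, was the parent of 7 of these copies, with 74.5% to 100% of their words shared. Their loci spanned 180 to 187 bases, and the Gapdh 3′ UTR has 178. Together they had 248 and 1783 reads, 311 and 1113 CPM, while the annotated copies had 1133 and 495 reads and Gapdh itself 57 and 122. The locus with the highest mean CPM of the 707, IL001, chr11:20334833-20335012 on the minus strand, followed Gm12033. Its reads numbered 152 in replicate 1 and 1513 in replicate 2, or 191 and 944 CPM. It was 4.95-fold higher in replicate 2 (4.19 to 5.89, Fisher's exact test, adjusted p = 1.03e-116). Gm12033 itself went the other way, with 1065 and 431 reads, 1336 and 269 CPM. Of the reads of copy and locus together, the locus thus held 12.5% (10.7 to 14.5) in replicate 1 and 77.8% (75.9 to 79.7) in replicate 2. Over the other 41 pairs the locus held 59.2% (55.7 to 62.7) and 77.6% (75.3 to 79.9), and with Gm12033 included 31.0% and 77.7%. The higher share in replicate 2 went with its shorter models in annotated genes, and that part was not tested.

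Pgk1, another glycolysis gene, was the parent at 2 of the highest loci. IL004 after Pgk1-rs7 had 121 and 150 reads, 1.62-fold lower CPM in replicate 2 and under the fold required for a call. Pgk1-rs7 had 63 and 10 reads. IL005 after Gm5537 had 84 and 127 reads. They spanned 421 and 426 bases, and the Pgk1 3′ UTR has 420. IL006 after Gm6969, a copy of Cox7a2l, a respiratory chain assembly gene, had 47 and 150 reads and spanned 676 bases, against 685 for the parent's UTR. IL010 after the Gapdh copy Gm10359 had 31 and 75 reads.

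Spans clustered at one length. Of the 707 loci, 191 (27.0%, 23.8 to 30.5) spanned 172 to 187 bases, a range chosen after the spans were seen. The most frequent span was 178 bases, at 36 loci. The 8 lengths just below, 164 to 171, had 14 loci and the 8 just above, 188 to 195, also had 14. Every one of the 191 was single-exon, 98 were on the plus and 93 on the minus strand, and 180 of them shared no base with an annotated gene. The 7 Gapdh copies account for 7 of the 191.

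These uniform loci differed in place from the rest. Their median distance to a gene was 5499 bases against 1412.5 for the other 516. They were spread evenly over the 4 positions, with 49 downstream on the same strand, 49 downstream on the other, 50 upstream on the same strand and 43 upstream on the other, where the other loci had 182, 142, 80 and 106. The 5′ ends of the main models of the libraries lay within 10 bases of each other at 188 of 191 loci, 98.4%, against 270 of 516, 52.3%, and the 3′ ends at 88.0% against 76.7%. Both 5′ and 3′ agreement is bounded by the short span. They held 29.8% of the loci's reads in replicate 1 and 45.1% in replicate 2, or 25.9% and 33.6% without IL001. Among intergenic loci seen in 1 library, the same spans made up 17.1% of 895 in replicate 1 and 18.5% of 3626 in replicate 2. The sequence they hold was not analysed here as a set, and the RefSeq windows covered the span of 1 of them, IL540. In that window a run of A bases directly followed the last base of the locus. Its part in this locus was not tested, and the other loci of these spans could not be looked at for it.

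The second locus by mean CPM, IL002, chr15:103619061-103619240 on the plus strand, was one of them, 30551 bases from the nearest gene. It had 147 and 839 reads, 184 and 524 CPM, 2.84-fold higher in replicate 2 (2.38 to 3.41). IL008 near the spermidine synthase gene Srm had 17 and 126 reads, and IL009 downstream of 2510046G10Rik had 26 and 94. The third by mean CPM, and the highest in replicate 1, was of another kind: IL003, chr7:28187294-28189355 on the minus strand, ended on the 3′ end of Dyrk1b, a kinase gene on the other strand with 48 and 58 reads. IL003 had 208 and 375 reads, 247 ± 19.02 CPM (SD, n = 2), and did not pass the test.

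Some loci differed between the libraries. Of the 220 loci with 10 or more reads, 24 were called by Fisher's exact test at an adjusted p under 0.05 and at least 2-fold, 18 higher and 6 lower in replicate 2. Of all 9796 features tested, annotated genes and antisense loci included, 13.3% were called, 8.57% higher and 4.75% lower. Of the annotated genes alone 11.3% were called, 5.81% higher and 5.52% lower. The share among the loci was 10.9% (7.12 to 15.8), near that background, and the rule kept only loci with a read in each library, so nothing is read from it. The median log2 ratio of replicate 2 to replicate 1 was 0.79 over the loci tested, 0.22 over all features and 0.06 over annotated genes.

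The loci with the largest upward folds had 1 read in replicate 1. IL033 near Igsf23 had 1 and 50 reads, 24.9-fold with a counting interval of 4.26 to 1002. IL062 near Myf6 had 1 and 32, 15.9-fold (2.66 to 648). IL080 at the end of Gm7075 had 1 and 26, IL112 near Phip had 1 and 20, and IL118 near Itga11 had 1 and 19. In each the interval spans more than a factor of 100.

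Among the largest downward folds, 3 loci were on chromosome Y although both libraries are labelled female. IL007, chrY:67834527-67839300 on the minus strand, had 83 and 28 reads, 5.96-fold lower in replicate 2 (3.84 to 9.50, adjusted p = 1.70e-17). IL017 on chromosome Y had 41 and 9 reads, 9.16-fold lower, and IL141 had 8 and 2, 8.04-fold lower. Chromosome Y held 6 of the 707 loci, with 143 and 44 reads. The single annotated gene of chromosome Y with reads was Gapdh-ps15, a copy of Gapdh, with 21 and 49. Whether the reads at these loci arose on chromosome Y was not tested. The other 2 were IL030 on chromosome X, 24 and 5 reads, 9.65-fold lower, and IL034 on chromosome 10, 20 and 10 reads, 4.02-fold lower. At IL030 the only intron, of 2523 bases, had 23 reads in replicate 1 and 0 in replicate 2. Its fold thus sets mostly spliced reads beside unspliced ones.

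The difference of a locus between the libraries was set beside that of its nearest gene. Over 106 loci where both were tested, the log2 ratios of locus and gene had a Pearson correlation of 0.10, a description over points that share both libraries. It was 0.10 over 45 loci downstream on the same strand and 0.11 over the 27 of these within 5 kb of a protein-coding gene.

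Loci near muscle genes were set against a list of 104 genes of contraction, energy supply and muscle regulation. The nearest gene was on the list at 30 loci, 4.24% (2.88 to 6.002), and these loci lay near 23 of the genes. Of all 5470 intergenic loci in either library 99 did, 1.81%. By role, 11 lay near regulators, 6 near genes of calcium handling and excitation, 5 near sarcomere genes, 4 near the microRNA genes, 3 near energy genes and 1 in the fast myosin cluster. Of the 30, 19 were tested, and 3 were called higher and 0 lower in replicate 2, where 8.57% and 4.75% of all 9796 features were. Nothing is read from this count, for the same reason as above. Those named here outside the rule for names were chosen after their values were seen.

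**Figure D5:**
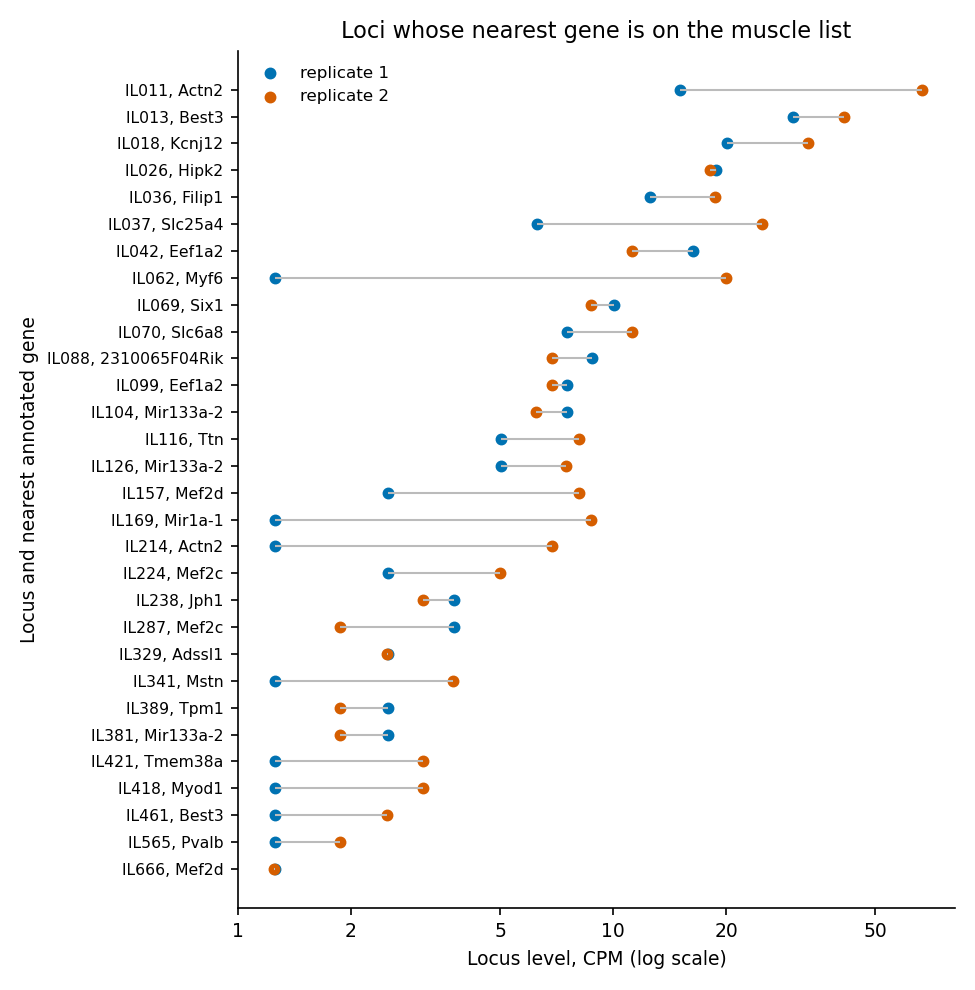
Level in CPM on a log scale (horizontal) of the 30 loci whose nearest annotated gene is on the muscle list (vertical), in replicate 1 (blue) and replicate 2 (orange), joined by a line. The widest gaps on the log scale are at IL062, IL169 and IL214, and all of the loci lie below 70 CPM.

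At the sarcomere genes, IL011, chr13:12266417-12266547, lay 2878 bases downstream of Actn2, the gene of the Z-disc protein α-actinin 2, on its strand. It had 12 and 107 reads, 15.1 and 66.8 CPM, 4.44-fold higher in replicate 2 (2.44 to 8.85, adjusted p = 1.37e-07). Actn2 had 180 and 1660 reads, 226 and 1036 CPM, higher in the same library. IL214 on the other strand started from the same base as IL011 and had 1 and 11 reads. It was 1 of 4 pairs of loci on opposite strands whose 5′ ends shared 1 base, among 9 pairs that overlapped. IL116 started at the last base of Ttn, the gene of the giant spring protein titin, and had 4 and 13 reads. IL011 moved with the summed slow fibre markers, 21.3 and 9054 CPM, and their part in it was not tested.

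At regulators, IL062 ended 344 bases downstream of Myf6, a myogenic transcription factor gene, on the other strand, and was called higher in replicate 2, with 1 and 32 reads against 55 and 152 for Myf6. IL418, 4809 bases upstream of Myod1 on its strand, had 1 and 5 reads, and Myod1 4 and 6. The pair IL157 and IL666 upstream of Mef2d lay on opposite strands and overlapped by 390 bases, with 2 and 13 reads and 1 and 2 reads. IL341 lay 2308 bases downstream of Mstn, the gene of the growth inhibitor myostatin, with 1 and 6 reads.

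At the microRNA genes, IL104, chr2:180398482-180400976, started on the last base of Mir133a-2 on its strand and had 6 and 10 reads, 6.88 ± 0.912 CPM (SD, n = 2). IL126 and IL381, farther downstream at 4472 and 9776 bases, had 4 and 12 reads and 2 and 3 reads. RefSeq lists the place of IL104 as Mir1a-1hg, the host gene of these microRNAs. IL169, on the other strand 580 bases before Mir1a-1, had 1 and 14 reads. IL104, IL126 and IL169 did not pass the test, and IL381 had too few reads for it.

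At calcium and excitation genes, IL013 downstream of the chloride channel gene Best3 had 24 and 66 reads while Best3 had 2 and 1, so the locus was the higher of the pair. IL018 started on the last base of Kcnj12, an inward rectifier potassium channel gene, and had 16 and 53 reads against 44 and 34. IL565 started on the last base of Pvalb, the gene of a calcium buffer of fast fibres, with 1 and 3 reads against 3923 and 7349. At energy genes, IL037 downstream of Slc25a4, which exchanges ATP across the inner mitochondrial membrane, lay on the other strand and had 5 and 40 reads, 3.98-fold higher in replicate 2 (1.57 to 12.9). Slc25a4 had 7965 and 32090 reads.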

How the data were processed

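The read counts per model and the model annotations, 1 of each per library, are as the authors deposited them, made from filtered alignments to mm10 with GENCODE M21 per the README beside the files. Per the file headers, gene and transcript numbers and novelty classes are those of TALON. Neither names an aligner, a filter or a strand setting. In such tables a copy and its parent can share reads, and the hybrid's CAST/EiJ allele was aligned to the reference strain.

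Intergenic models were joined into loci by same-strand overlap over both libraries (Python 3.11.15, pandas 2.3.3). Distances were taken to GENCODE M21 gene spans. Counts were scaled to CPM on reads in annotated mouse genes. Features with at least 10 reads summed were tested between the libraries by Fisher's exact test, two-sided (scipy 1.17.1), with Benjamini-Hochberg adjustment over all annotated genes, antisense and intergenic loci, and called at an adjusted p under 0.05 and at least 2-fold. The script was tested on simulated data. edgeR 4.0.16 and DESeq2 1.42.0 gave alternative scale factors only. The loci, the muscle list and the tests were chosen with earlier results of these data known. Named loci are the 10 with the highest mean CPM, up to 10 spliced loci with an intron chain in both libraries and the most spliced reads, the 5 farthest from a gene with at least 10 reads, and the 5 largest folds each way among calls. Sequence after and before the 3′ ends was planned but not analysed across the loci, since no genome was used. Interval and floor values cover counting error only: 3 reads are 3.76 CPM in replicate 1 and 1.87 in replicate 2.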

Additional observations from a re-analysis of the deposited data

Results flagged for a closer look

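Outside the loci described, which were limited to assembled chromosomes, intergenic models also lay on unplaced mouse sequences, which the comparisons did not use. They held 32 reads in replicate 1 and 103 in replicate 2. Of 2 loci there that were found in both libraries, 1 held 23 and 73 of these reads and the other 2 and 1. The first was above the 3 reads that a count of 0 allows.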

How the results depend on the processing

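The number of loci, 707, became 220 with at least 10 reads and 949 with at least 2, and lay between 257 (replicate 1 alone) and 908 (replicate 2 alone) when 1 library was used. Overlap of at least 50% of the shorter span gave 700, exonic overlap 706 and replicate 2 thinned to the depth of replicate 1 gave 510. The spliced share, 11.03%, was 7.07% when spliced models had to hold at least 50% of the reads, and 9.69% to 10.9% in 1 library. The median distance, 2254 bases, was 1877.5 with at least 10 reads, 2505 with at least 2, 4290 to protein-coding genes, 7069 to genes on the same strand, and 2145.5 to 2295 in 1 library. Chosen after seeing the data, leaving out loci that share a base with a gene gave 3450. Downstream on the same strand lay 38.6% with at least 10 reads, 25.7% by protein-coding genes and 32.7% to 38.1% in 1 library. Downstream on the other strand lay 24.5% to 29.0% in 1 library. Upstream on the same strand lay 16.8% with at least 10 reads, 19.2% with at least 2, 21.5% by protein-coding genes and 16.9% to 17.1% in 1 library. Upstream on the other strand lay 18.6%, 22.3% and 26.6% under the same settings, 21.4% with the stricter overlap and 20.2% to 20.7% in 1 library. The loci's share of intergenic reads in replicate 1, 69.7%, was 50.4% with at least 10 reads. The 24 calls ranged from 21 to 28 under other totals, TMM or DESeq2 factors, read minimums and no minimum fold, and were 21 without chromosome Y and 23 without loci at pseudogene ends, both of these chosen after seeing the data. IL118 lost its call when features with at least 3 reads were tested, and IL004, IL006 and IL009 passed without a minimum fold. The A-rich window and polyadenylation signal alternatives were not run. No paired analysis was possible because the 2 libraries form 1 group. Depth limits most loci: 487 of 707 had under 10 reads and were not tested.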
